A study of Mus musculus with 6 samples.

Results

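The collagen genes were followed in the hearts of newborn mice with and without a cardiac knockout of Kdm5b, a gene for a histone demethylase. The family was taken as every protein-coding gene of the deposited table whose symbol is Col, a type number, the letter a and a chain number. This gave 44 of 56748 genes. Of these, 11 encode chains of fibrillar collagens, 6 the type IV chains of basement membranes and 27 the chains of other types. RNA of hearts taken at postnatal day 1 was sequenced in 3 samples of genotype FF, titled Flox (called FF_1 to FF_3 here), and in 3 samples titled as cardiac specific kdm5b knockouts (cKO_1 to cKO_3). The series names the FF mice as its controls. The sources used here state neither the strain and sex of the mice nor the Cre driver and the floxed exons. The labels do not say that each sample came from a separate animal, so p-values measure only the spread between these samples. In RNA of a whole organ, fewer cells of a type and less RNA per cell cannot be told apart.

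Collagens are secreted proteins whose chains wind into triple helices. The fibrillar types, of which types I and III dominate in the heart, form the rope-like fibres between muscle cells and are made mainly by fibroblasts. Type IV collagen forms the sheet-like networks of basement membranes around muscle cells and vessels, and the other types decorate fibrils, form beaded filaments, span the cell membrane or sit at the border of basement membranes. The matrix of the heart is laid down rapidly around birth.

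Levels are FPKM, reads per kilobase of gene length scaled to library size, as the authors deposited them. The libraries held 15658893 to 20339926 reads. The cardiomyocyte markers (7 genes) summed to 9548 to 13422 FPKM, as the tissue label states, and Actc1 alone gave 4784 to 7931 FPKM. FF_3 stood apart from the others. Its correlation with the other 5 libraries over tested genes was 0.880 to 0.909, against 0.954 to 0.984 among those 5. The 15 thymocyte markers summed to 346 FPKM in FF_3 and to 1.38 to 2.34 FPKM in the others, with Trbc2 at 1.02, 0.0904 and 109 FPKM in FF_1 to FF_3 and 0.146, 0.146 and 0 FPKM in cKO_1 to cKO_3. Cd3e was 0.0144, 0 and 8.57 FPKM in FF_1 to FF_3 and 0.0248, 0 and 0 FPKM in cKO_1 to cKO_3, and Cd8a was 0.0644, 0.0688 and 16.6 FPKM and 0, 0 and 0.0380 FPKM. Thymic stroma markers (7 genes) summed to 34.5 FPKM in FF_3 and 0.818 to 1.41 FPKM elsewhere, and Schwann cell markers (6 genes) to 48.6 and 2.20 to 3.28 FPKM. Kdm5b was 3.19, 3.25 and 3.92 FPKM in FF_1 to FF_3 and 2.80, 3.03 and 2.75 FPKM in cKO_1 to cKO_3. These are values of the whole gene in all cells of the heart, so they check the labels only coarsely. Kdm5b did not pass the test used below with 6 libraries. Its difference in log2(FPKM + 1), cKO minus FF, was -0.20 (adjusted p = 0.447 in limma). The tests below were run with and without FF_3.

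Collagen transcripts made up 0.693%, 0.824% and 1.22% of all reads in FF_1 to FF_3, and 0.637%, 0.851% and 0.876% in cKO_1 to cKO_3. FF_3 had the highest share and cKO_1 the lowest, and FF_1 and FF_2 lay within the range of the cKO libraries. Fibrillar genes gave 41.4% to 47.0% of the family's summed FPKM in the 6 libraries. Type IV genes gave 32.8% to 38.8% and all other types 19.3% to 20.9%. The summed level of fibrillar genes was 378, 472 and 737 FPKM in FF_1 to FF_3 and 324, 444 and 463 FPKM in the cKO libraries. Type IV genes summed to 353, 335 and 520 FPKM in FF and to 304, 401 and 378 FPKM in cKO. The groups overlapped for both classes, with and without FF_3.

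Per gene length, the order of mean levels was headed by Col4a1 (210 FPKM over the 6 libraries), Col3a1 (188), Col4a2 (152) and Col1a1 (141), followed by Col1a2 (64.9) and Col6a1 (63.5). Neighbours in this order overlapped between libraries, and Col1a1 spanned the widest range of them, 87.0 to 261 FPKM. A mean of at least 1 FPKM was reached by 24 of the 44 genes, namely 8 fibrillar, 4 type IV and 12 others, and these were tested. The other 20 are described by value only.

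**Figure D1:**
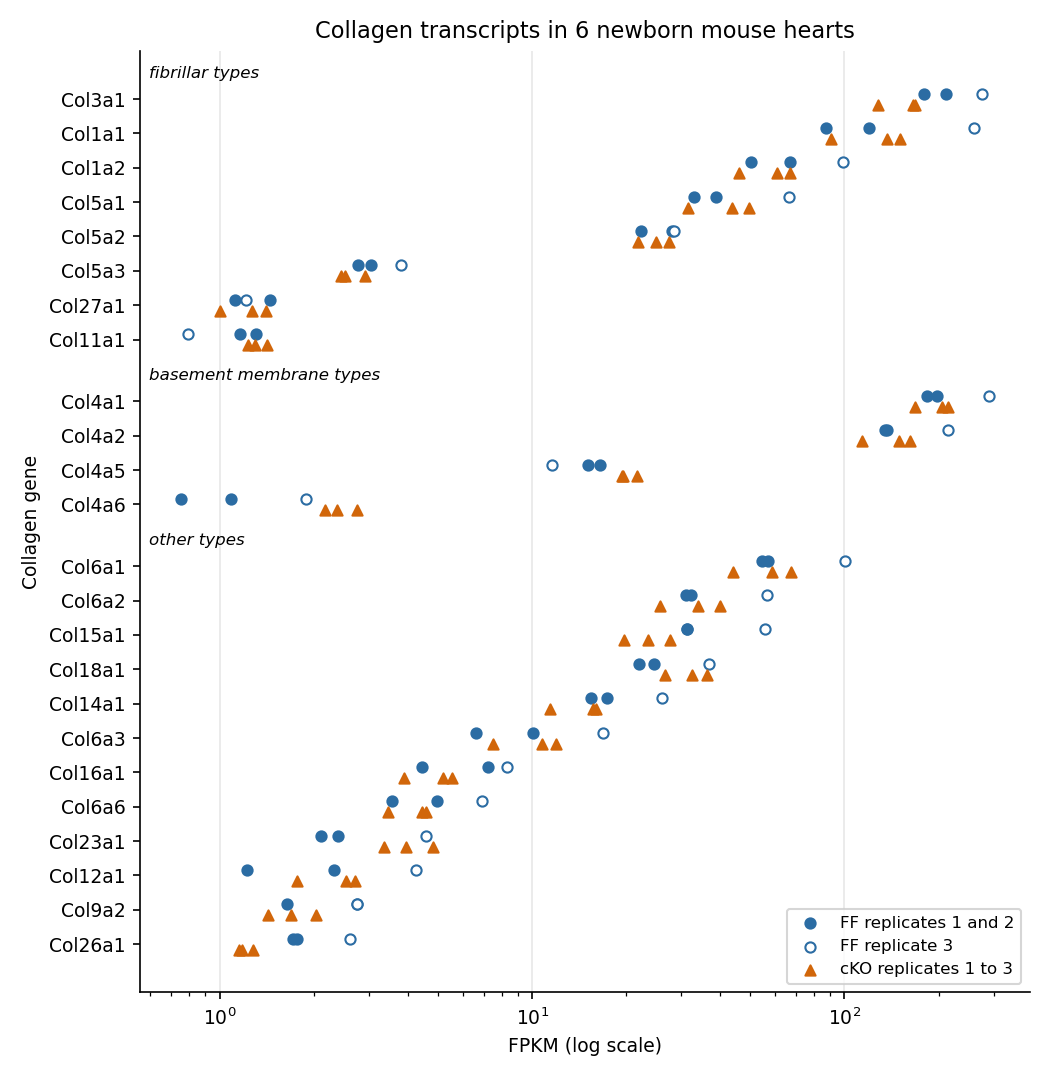
FPKM of the tested collagen genes in each library on a log axis, grouped as fibrillar, basement membrane and other types, with FF libraries as circles (FF_3 open) and cKO libraries as triangles. Col4a1, Col3a1, Col4a2 and Col1a1 stand at the top, and FF_3 is the highest point for 19 of the 24 genes.

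FF_3 was the highest of the 6 libraries for 19 of the 24 tested collagens (79.2%), against 34.6% of all 12678 genes tested. Its level was 1.59 times the mean of FF_1 and FF_2 at the median over these collagens and 1.01 times at the median over all tested genes. The GC content of collagen transcripts had a median of 56.0% (48.0% to 62.7%), against 49.7% over all tested genes with a value, and in FF_3 deviations of genes rose with GC content (Spearman's rho of 0.61 over genes, a description since genes share the library). Tested genes within the collagens' GC range had a median ratio of 1.24. Markers of the heart's other cells were mixed in FF_3. The endothelial sum (10 genes) was 498 FPKM in FF_3 against 300 to 372 FPKM elsewhere, and 5 of the 10 were highest there. All 7 tested epicardial markers were highest there, with a sum of 86.1 FPKM against 28.6 to 46.9 FPKM elsewhere. Wt1 and Aldh1a2 were so only by little, at 4.75 and 25.5 FPKM in FF_3 against 4.65 and 25.3 FPKM in FF_1. Upk3b stood far apart, at 21.7 FPKM against 5.05 to 7.09 FPKM elsewhere. By contrast, 4 of 9 tested fibroblast markers and 2 of 8 tested mural markers were highest in FF_3. The fibroblast sum (10 genes) was 434 FPKM in FF_3 against 261 to 379 FPKM, with Lum at 45.3 FPKM against 47.4 and 61.2 FPKM in FF_1 and FF_2 and Wif1 lowest in FF_3. The mural sum of 535 FPKM lay within the range of the others, 462 to 601 FPKM, but Acta2 alone gave 412 FPKM of it. Without Acta2 the mural sum was lowest in FF_3, at 123 FPKM against 144 to 203 FPKM. Of the cardiomyocyte markers, Ttn, Ryr2, Mybpc3, Tnnt2 and, by little, Myh6 were lowest in FF_3, but Actc1 and Tnni3 were not. Ttn was 17.5 FPKM there against 28.9 to 36.2 FPKM elsewhere, and Tnnt2 was 658 FPKM against 862 to 1005 FPKM. The part of GC content and of these cell types in the FF_3 values was not tested. At the other end, cKO_1 was the lowest library for 14 of the 24 collagens (58.3%), against 15.8% of all tested genes.

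**Figure D2:**
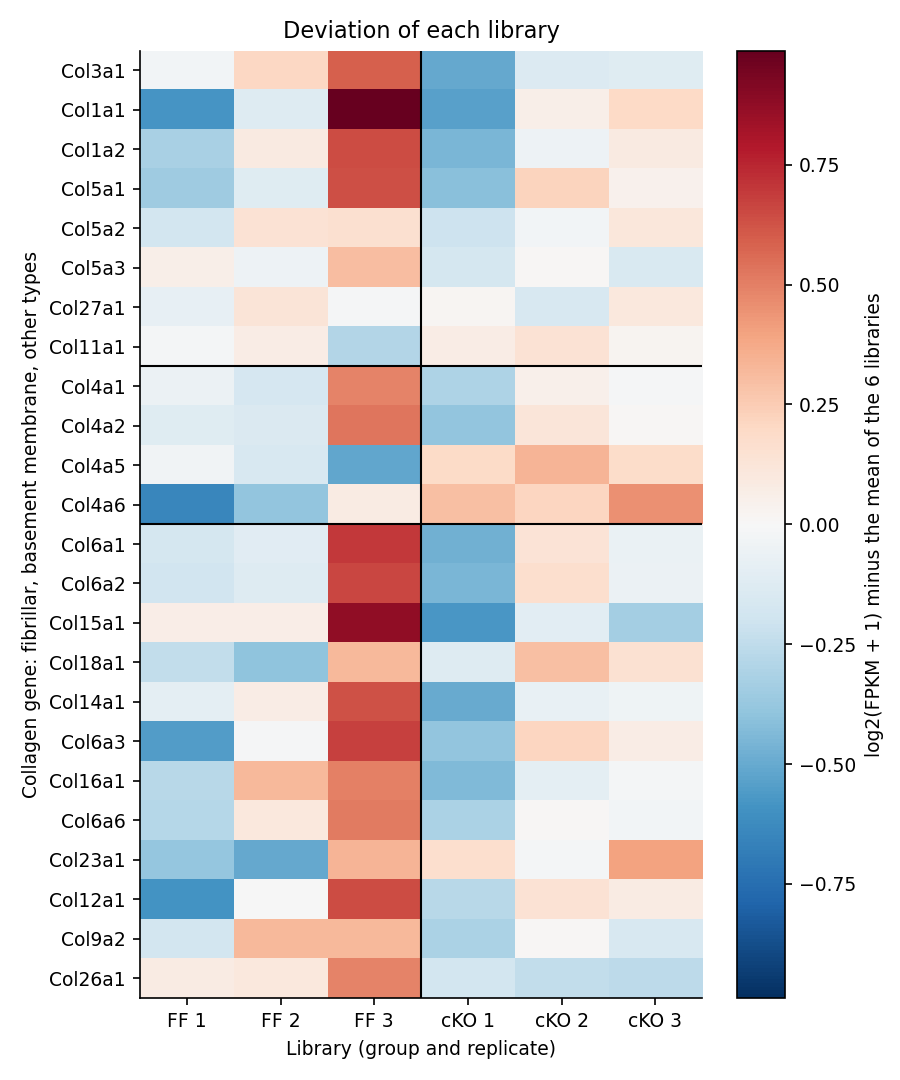
Heat map of log2(FPKM + 1) minus the gene's mean over the 6 libraries, with a row for each of the 24 tested collagen genes and a column for each library (red above the mean, blue below, lines between classes and groups). The column of FF_3 is red for 21 genes and that of cKO_1 for 5.

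The comparison of cKO with FF asked which collagen genes depend on Kdm5b in the newborn heart. With all 6 libraries none of the 24 tested collagens passed the threshold in limma on log2(FPKM + 1) at an adjusted p of 0.05 (Benjamini-Hochberg over all tested genes), where 0.166% of all tested genes did. An unadjusted p under 0.05 was reached by 5 of them, 2 higher and 3 lower in cKO (20.8%), against 17.9% of all tested genes, and limma voom on the reads recovered from the FPKM also called 0, with 2 higher and 3 lower before adjustment. Without FF_3 the count was 2 of 24, or 8.33%, against 12.0% of all tested genes, and before adjustment 6 of 24, against 33.5%. Both of those, Col4a6 and Col23a1, were higher in cKO, a direction called in 5.73% of all tested genes. Called shares of collagens were thus near or below the shares of all genes tested.

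The direction of the family as a whole moved with FF_3. The log2 difference, taken as cKO minus FF of log2(FPKM + 1), was negative for 19 and positive for 5 of the 24 genes with 6 libraries, with a median of -0.18 against 0.01 over all tested genes. Without FF_3, 13 were positive and 11 negative, with a median of 0.02 against -0.01. By class the medians with 6 libraries were -0.14 for fibrillar, 0.15 for type IV and -0.25 for other collagens, and without FF_3 they were -0.02, 0.19 and -0.01. Ranges of FF and cKO values did not overlap for 5 of 24 genes (20.8%) with 6 libraries, against 28.0% of all tested genes, and for 7 (29.2%) without FF_3, against 52.0%. Without FF_3, the 95% interval of the log2 difference lay within 1 of 0 in either direction for 23 of the 24 collagens and within 0.5 for 10. With all 6 libraries those counts were 21 and 2.

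**Figure D3:**
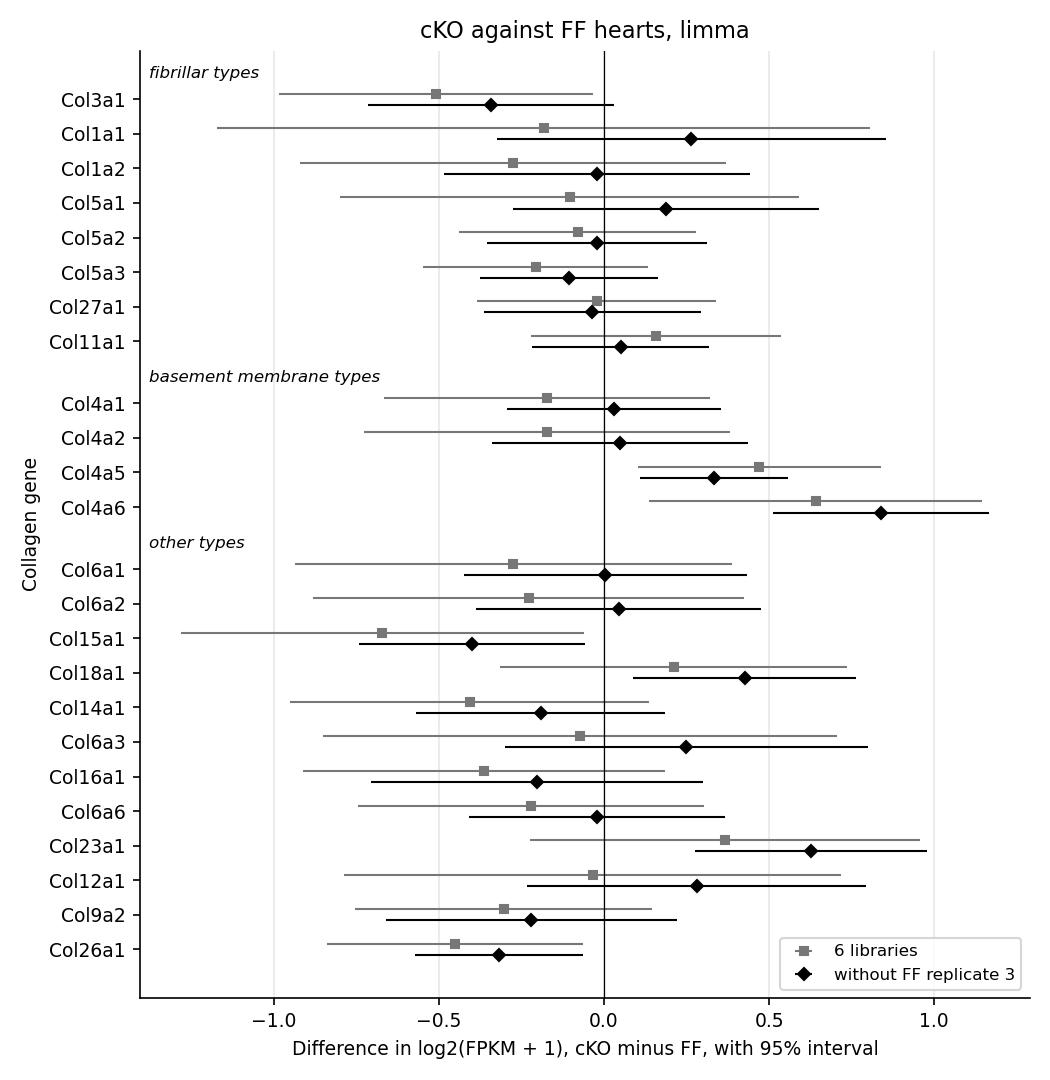
Difference in log2(FPKM + 1) between cKO and FF (cKO minus FF) for each tested collagen gene, with its 95% interval, with all 6 libraries and without FF_3. Most estimates move to the right when FF_3 is left out, and only Col4a6 and Col23a1 pass the adjusted threshold, both without FF_3.

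Among fibrillar collagens, Col1a1 and Col1a2 encode the chains of type I collagen. Col1a1 was 87.0, 120 and 261 FPKM in FF_1 to FF_3 and 90.2, 137 and 150 FPKM in cKO_1 to cKO_3. The FF range enclosed every cKO value. Its log2 difference was -0.18 (95% interval -1.17 to 0.80, adjusted p = 0.854 in limma) with 6 libraries and 0.26 (-0.33 to 0.86, adjusted p = 0.482) without FF_3. Col1a2 was 50.2, 66.9 and 99.0 FPKM in FF and 45.9, 60.6 and 66.9 FPKM in cKO, with a difference of -0.28 (-0.92 to 0.37, adjusted p = 0.643) with 6 libraries and -0.02 (-0.49 to 0.44, adjusted p = 0.952) without FF_3. The groups again overlapped.

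Col3a1, whose chain forms type III collagen and is found beside type I in fibres, was the only fibrillar gene among those tested whose groups did not overlap. Its values were 179, 211 and 275 FPKM in FF_1 to FF_3 and 128, 166 and 168 FPKM in cKO_1 to cKO_3. Every cKO library was below every FF library, but the difference of -0.51 (-0.98 to -0.03) had an adjusted p = 0.253, and without FF_3 it was -0.34 (-0.71 to 0.03, adjusted p = 0.174), so the difference did not pass the test. Col5a1, Col5a2 and Col5a3, whose type V chains take part in the assembly of fibrils, overlapped between groups in 3 of 3 cases, as did Col11a1 and Col27a1 near the lower limit of testing.

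The ratio of partner chains within a library was steadier than their level for some pairs. Col1a1 over Col1a2, which in type I collagen stand in unequal numbers of chains, was 1.73, 1.79 and 2.63 in FF_1 to FF_3 and 1.97, 2.25 and 2.25 in cKO_1 to cKO_3. Col1a1 in FF_3 was thus high also against its partner. Col5a1 over Col5a2 showed a like excess in FF_3, at 2.34 against 1.38 to 1.98 in the other libraries.

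Type IV collagen has 6 chains, encoded by pairs of genes that lie head to head. Col4a1 and Col4a2, the chains of nearly all basement membranes, lie on chromosome 8 at 11248423 to 11362826 (minus strand) and 11362805 to 11499287 (plus strand) and share 22 bases in the deposited coordinates. No source used here states whether the authors counted by strand, so reads from the shared bases could belong to either gene. Col4a1 was 198, 184 and 291 FPKM in FF_1 to FF_3 and 168, 215 and 205 FPKM in cKO_1 to cKO_3. Col4a2 was 137, 134 and 215 FPKM in FF and 113, 162 and 150 FPKM in cKO. FF_3 was the highest library for both genes, and the groups overlapped. With 6 libraries their log2 differences were -0.17 (-0.67 to 0.32, adjusted p = 0.711 in limma) and -0.17 (-0.73 to 0.38, adjusted p = 0.743). Without FF_3 the estimates lay on the other side of 0, at 0.03 (-0.29 to 0.35, adjusted p = 0.900) and 0.05 (-0.34 to 0.44, adjusted p = 0.860). The ratio of Col4a1 to Col4a2 stayed between 1.33 and 1.48 in all 6 libraries.

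Col4a5 and Col4a6 encode the chains of a rarer type IV network found in a subset of basement membranes, among them those of smooth muscle. They lie head to head on the X chromosome, Col4a6 at 139948399 to 140257072 on the minus strand and Col4a5 at 140258381 to 140472230 on the plus strand, with 1308 bases between them in the deposited coordinates. The 250 bases upstream of each RefSeq start are shown because these neighbours were both higher in every cKO library than in every FF library, and that of Col23a1 because it was the other called gene. They are from RefSeq on GRCm38.p6, a build other than that of the deposited coordinates, and read 5′ to 3′ on the gene's strand. Capitals mark GC boxes (GGGCGG on either strand) and the CCAAT box (CCAAT on either strand), which do not overlap here. The regions are chrX:141474077-141474326 (minus strand) for Col4a6, chrX:141475169-141475418 (plus strand) for Col4a5 and chr11:51289670-51289919 (plus strand) for Col23a1.
Col4a6: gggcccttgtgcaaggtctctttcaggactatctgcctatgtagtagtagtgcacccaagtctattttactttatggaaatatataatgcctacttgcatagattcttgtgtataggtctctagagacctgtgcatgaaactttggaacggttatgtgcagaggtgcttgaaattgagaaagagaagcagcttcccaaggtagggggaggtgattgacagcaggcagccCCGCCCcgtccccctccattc
Col4a5: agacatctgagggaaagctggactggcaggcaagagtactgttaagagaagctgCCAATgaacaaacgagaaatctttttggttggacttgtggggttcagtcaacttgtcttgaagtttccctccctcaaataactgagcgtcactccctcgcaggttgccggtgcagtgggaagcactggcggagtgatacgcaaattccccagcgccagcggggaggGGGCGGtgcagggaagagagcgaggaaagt
Col23a1: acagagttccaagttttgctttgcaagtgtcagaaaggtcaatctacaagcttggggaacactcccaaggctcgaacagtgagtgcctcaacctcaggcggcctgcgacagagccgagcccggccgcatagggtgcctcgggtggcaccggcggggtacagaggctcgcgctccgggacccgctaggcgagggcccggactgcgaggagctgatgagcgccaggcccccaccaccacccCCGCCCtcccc

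Each of these regions holds 1 GC box, 21 bases before the start of Col4a6, 30 before that of Col4a5 and 11 before that of Col23a1. Col4a5 also has a CCAAT box, 196 bases before its start. Promoter entries were found for 19 of the 24 tested collagens, 21 entries in all. A GC box was present in 15 of the 21, against 32.7% of all 32851 upstream regions of the same length, CCAAT in 8 (33.8% of all) and TATAAA in 1 (12.4% of all). The regions compared were not matched for GC content or expression, and Col18a1 and Col6a2 have more than 1 entry each. The shares are thus a description only. A match is a run of letters and not a shown binding site.

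Col4a6 had the widest gap between the groups without FF_3 among the tested collagens. It was 0.749, 1.09 and 1.89 FPKM in FF_1 to FF_3 (102, 139 and 289 reads) and 2.38, 2.17 and 2.74 FPKM in cKO_1 to cKO_3 (374, 342 and 475 reads). All cKO libraries were above all FF libraries, with FF_3 nearest to them. The cKO mean was 1.95 times the FF mean with 6 libraries, where the log2 difference of 0.64 (0.14 to 1.14) had an adjusted p = 0.193 in limma. Without FF_3 the ratio of means was 2.64, and the difference of 0.84 (0.51 to 1.17) passed the test with an adjusted p = 0.0211. The FF mean was then 0.920 FPKM, so the gene entered the test partly through its cKO level. The call was lost without FF_1, FF_2 or cKO_3 (adjusted p = 0.122, 0.0885 and 0.0671) and with no filter on low genes (0.101).

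Col4a5 was 16.5, 15.1 and 11.6 FPKM in FF_1 to FF_3 and 19.5, 21.6 and 19.4 FPKM in cKO_1 to cKO_3. Every cKO library was above every FF library, and FF_3 was the lowest of the 6, unlike for Col4a6. The log2 difference was 0.47 (0.10 to 0.84, adjusted p = 0.193 in limma) with 6 libraries and 0.33 (0.11 to 0.56, adjusted p = 0.0647) without FF_3, so it did not pass the test in either. The ratio of Col4a5 to Col4a6 was 22.1, 13.8 and 6.13 in FF and 8.21, 9.96 and 7.07 in cKO.

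Both genes are X-linked and the libraries differed in sex-linked transcripts. Xist was 61.6, 54.3 and 0.00873 FPKM in FF_1 to FF_3 and 63.0, 27.1 and 0.0744 FPKM in cKO_1 to cKO_3, and Ddx3y, on the Y chromosome, was 0, 0, 0.985, 0.00974, 0 and 8.21 FPKM in the same order. Each group thus held 1 library with Ddx3y well above the others and Xist near 0. In FF this was FF_3, so every fit without FF_3 kept such a library in cKO only (cKO_3). The part of sex in the calls without FF_3 was not tested. Among the 4 libraries without FF_3 and cKO_3, the log2 difference was 0.77 for Col4a6 (adjusted p = 0.0671 in limma) and 0.36 for Col4a5 (adjusted p = 0.141), against 0.84 and 0.33 with cKO_3 kept.

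Col23a1, a transmembrane collagen, was the other gene that passed the test without FF_3. Its level was 2.39, 2.10 and 4.57 FPKM in FF_1 to FF_3 and 3.95, 3.36 and 4.82 FPKM in cKO_1 to cKO_3. FF_3 lay inside the cKO range and the other FF libraries below it. The log2 difference was 0.37 (-0.22 to 0.96, adjusted p = 0.493 in limma) with 6 libraries and 0.63 (0.28 to 0.98, adjusted p = 0.0442) without FF_3, where the cKO mean was 1.80 times the FF mean. Leaving out any further library ended the call, with adjusted p = 0.0534 to 0.170.

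Col15a1 and Col18a1 encode the multiplexins, collagens at the outer face of basement membranes whose ends can be cleaved to fragments known for effects on vessels. Col15a1 was 31.23, 31.22 and 55.7 FPKM in FF_1 to FF_3 and 19.7, 27.7 and 23.5 FPKM in cKO_1 to cKO_3, below every FF library. Its log2 difference was -0.67 (-1.28 to -0.06, adjusted p = 0.246 in limma) and, without FF_3, -0.40 (-0.74 to -0.06, adjusted p = 0.107). Col18a1 was 24.6, 22.0 and 36.9 FPKM in FF and 26.7, 36.2 and 32.5 FPKM in cKO, with a difference of 0.21 (-0.31 to 0.74, adjusted p = 0.663) and, without FF_3, 0.43 (0.09 to 0.76, adjusted p = 0.0914). Neither gene passed the test in these fits, and their estimates lay on opposite sides of 0.

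The ratio of Col15a1 to Col18a1 within a library set these opposite estimates side by side. It was 1.27, 1.42 and 1.51 in FF_1 to FF_3 and 0.740, 0.765 and 0.722 in cKO_1 to cKO_3. FF_3 was no exception here, since both genes were high in it. The FF mean was 1.40 ± 0.120 (SD, n = 3) and the cKO mean 0.742 ± 0.0216 (SD, n = 3), so the ratio was 1.89-fold higher in FF. The log2 ratio differed by -0.91, cKO minus FF, against a pooled SD of 0.0937. This ratio was chosen after its values were seen, so it is a description with no test. Of the 276 pairs of tested collagens, 87 (31.5%) had ratios that did not overlap between the groups, and 32 of those differed by more on the log2 scale.

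**Figure D4:**
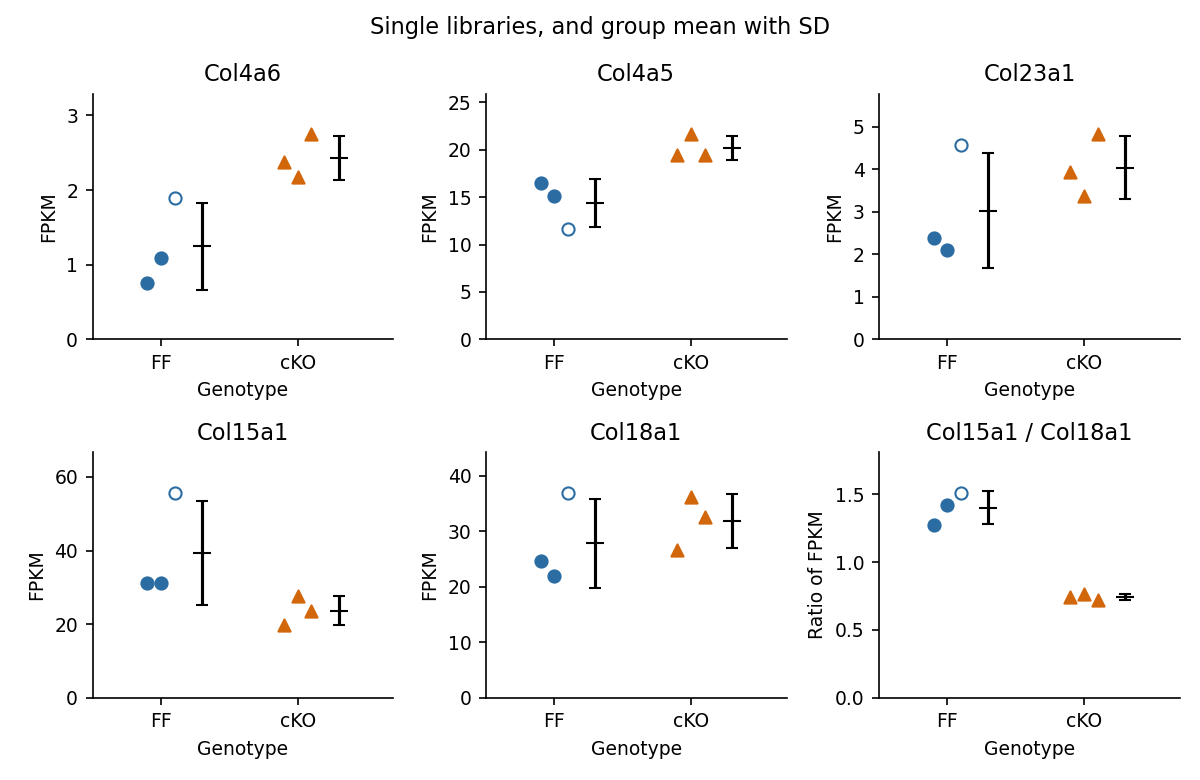
FPKM of Col4a6, Col4a5, Col23a1, Col15a1 and Col18a1, and the ratio of Col15a1 to Col18a1, in the 3 FF libraries (circles, FF_3 open) and the 3 cKO libraries (triangles), with the group mean and SD beside them. Col4a6 and Col4a5 lie higher in every cKO library than in any FF library, Col15a1 and the ratio lie lower, and FF_3 falls inside the cKO range for Col23a1.

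Type VI collagen forms beaded filaments near cell surfaces. Col6a1 was 54.4, 56.8 and 100 FPKM in FF_1 to FF_3 and 43.8, 67.6 and 58.5 FPKM in cKO_1 to cKO_3. Col6a2 was 31.1, 32.4 and 56.7 FPKM in FF and 25.7, 40.1 and 34.1 FPKM in cKO. Both overlapped between the groups. Their log2 differences were -0.27 (-0.94 to 0.39, adjusted p = 0.654 in limma) and -0.23 (-0.88 to 0.42, adjusted p = 0.710) with 6 libraries, and 0.00 (-0.42 to 0.43, adjusted p = 0.991) and 0.04 (-0.39 to 0.47, adjusted p = 0.885) without FF_3. The ratio of Col6a1 to Col6a2 was 1.75, 1.75 and 1.77 in FF and 1.71, 1.69 and 1.72 in cKO. Col6a3, the other main chain, was 6.62 to 16.9 FPKM with its highest value in FF_3, as theirs.

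Col26a1, a collagen with an emilin-like domain, was 1.72, 1.77 and 2.62 FPKM in FF_1 to FF_3 and 1.28, 1.18 and 1.16 FPKM in cKO_1 to cKO_3. All cKO libraries were below all FF libraries, without passing the test. The log2 difference was -0.45 (-0.84 to -0.06, adjusted p = 0.226 in limma) and, without FF_3, -0.32 (-0.57 to -0.06, adjusted p = 0.0942). The tested fibril-associated collagens, which bind to the surface of fibrils, were Col9a2, Col12a1, Col14a1 and Col16a1. Their groups overlapped in each case, at 1.42 to 2.75 FPKM for Col9a2, 1.22 to 4.24 for Col12a1, 11.4 to 26.1 for Col14a1 and 3.89 to 8.34 for Col16a1.

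Other ways of processing changed the count of collagens called without FF_3. Limma voom on the recovered reads called 5 of 24 (20.8%), with Col4a6, Col23a1, Col4a5 and Col18a1 higher and Col26a1 lower, against 19.2% of all tested genes. With a correction for GC content the calls were 3 (12.5%), with Col4a6 and Col23a1 higher and Col15a1 lower (adjusted p = 0.0450), against 16.8% of 12473 genes. Col4a6 passed in 11 of 15 settings without FF_3, with a log2 difference of 0.71 to 1.43 (adjusted p = 0.00310 to 0.122), and Col23a1 in 9 of 15, with 0.52 to 0.83 (0.0159 to 0.170).

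The 20 genes with a mean under 1 FPKM had at most 181 reads in a library. Just inside the limit were Col11a1 (0.791 to 1.41 FPKM), a fibrillar chain best known from cartilage, and Col27a1 (1.00 to 1.45 FPKM). Just outside it were Col13a1, a transmembrane collagen of the neuromuscular junction (0.825, 0.761 and 0.736 FPKM in FF_1 to FF_3 and 0.897, 1.03 and 1.27 FPKM in cKO_1 to cKO_3), and Col8a1, a short-chain collagen (0.667 to 1.44 FPKM). Col28a1 was 0.263, 0.306 and 0.234 FPKM in FF and 0.454, 0.433 and 0.460 FPKM in cKO, on 22 to 49 reads. Both Col13a1 and Col28a1 were higher in every cKO library than in every FF library, the only ones of the 20 whose groups did not overlap. Of all tested genes, 28.0% did not overlap with 6 libraries. The share among genes under the limit was not counted, so these are given as single values. Chains of cartilage were scarce, with Col2a1, the chain of type II collagen, at 1 to 21 reads and Col10a1, a marker of hypertrophic cartilage, at 0 to 3 reads. Col4a3 and Col4a4, the head-to-head pair of kidney, lung and ear basement membranes on chromosome 1, stood at 0.0914 to 0.259 and 0.381 to 0.884 FPKM.

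Genes that make, modify, bind or degrade collagen were read from 8 lists of 86 genes, of which 74 were tested. None passed in limma with 6 libraries, where 11 (14.9%) had an unadjusted p under 0.05, against 17.9% of all tested genes, and voom called 0. Without FF_3, 6 (8.11%) passed, against 12.0% of all tested genes, 4 higher and 2 lower in cKO, and 13 (17.6%) by voom, against 19.2%. These shares were below those of all tested genes, so the genes named next are given as single values. Their adjusted p with 6 libraries was 0.0848 to 0.939. Serpinh1, the collagen chaperone HSP47, was 232, 219 and 323 FPKM in FF_1 to FF_3 and 147, 166 and 162 FPKM in cKO_1 to cKO_3 (adjusted p = 0.0324 without FF_3). It was the only gene called among 11 for chaperones and export. Among 15 genes for prolyl and lysyl modification, only P3h2, a prolyl 3-hydroxylase known to act on type IV collagen, passed. It was 1.15, 1.29 and 0.604 FPKM in FF and 2.30, 2.16 and 1.99 FPKM in cKO (adjusted p = 0.0384 without FF_3). Both genes kept their groups apart in all 6 libraries.

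Of 5 tested cross-linking genes, Tgm2, a transglutaminase, was higher, at 57.2, 76.6 and 56.7 FPKM in cKO_1 to cKO_3 against 29.3, 27.4 and 40.3 FPKM in FF_1 to FF_3 (adjusted p = 0.0171 without FF_3). The lysyl oxidases did not pass. Of 5 tested collagen receptors, Ddr1, a tyrosine kinase that collagen activates, was higher without FF_3 (16.8 and 14.9 FPKM in FF_1 and FF_2 against 21.9, 28.3 and 31.0 FPKM in cKO, adjusted p = 0.0378), but FF_3 stood above them all at 31.9 FPKM. Of 10 basement membrane partners, Lama5, a laminin chain, was 5.64, 7.15 and 8.34 FPKM in FF and 9.07, 11.2 and 11.2 FPKM in cKO (adjusted p = 0.0382 without FF_3). Among 14 genes of TGF-beta signalling, the pathway best known for raising collagen transcription, only Skil, an inhibitor of it, passed, at 5.12, 5.03 and 2.12 FPKM in FF and 3.64, 3.84 and 3.63 FPKM in cKO (adjusted p = 0.0499 without FF_3), with FF_3 below all cKO libraries. None of 5 tested genes for procollagen processing or 9 for degradation passed in limma without FF_3, where 4 of the 14 (28.6%) had an unadjusted p under 0.05, against 33.5% of all tested genes, and voom called 3 (21.4%), against 19.2%. The smallest adjusted p values there were 0.0508 for Adamts3, a propeptide protease (2.08, 1.74 and 1.01 FPKM in FF and 0.849, 1.24 and 0.891 FPKM in cKO), and 0.0588 for Timp4, an inhibitor of matrix proteases (0.984, 1.89 and 2.00 FPKM and 3.04, 4.80 and 2.77 FPKM).

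Markers of the cells that make collagen were read beside these results. Without FF_3, fibroblast markers summed to 313 to 379 FPKM in FF and 261 to 322 FPKM in cKO, and 4 of 9 tested (44.4%) were called, against 12.0% of all tested genes, Gsn and Tcf21 higher and Dpt and Dcn lower. Endothelial markers summed to 369 to 372 FPKM in FF and 300 to 362 FPKM in cKO, and 2 of 10 (20.0%, against the same 12.0%) were called, Cldn5 and Egfl7, both lower. Mural markers summed to 462 to 464 FPKM in FF and 491 to 601 FPKM in cKO, and 2 of 8 (25.0%) were called, Acta2 higher and Rgs5 lower. Without Acta2, the most abundant of them, the mural sum was 203 and 191 FPKM in FF_1 and FF_2 and 144, 160 and 155 FPKM in cKO_1 to cKO_3. Rgs5 was the largest part of this sum, at 109 and 101 FPKM in FF_1 and FF_2 and 65.9, 66.5 and 64.5 FPKM in cKO_1 to cKO_3. The other tested mural markers were not called and went both ways. Pdgfrb and Cspg4 had positive log2 differences, and Abcc9, Kcnj8, Notch3 and Myh11 negative ones. Epicardial markers summed to 37.3 to 46.9 FPKM in FF and 28.6 to 37.2 FPKM in cKO, and 3 of 7 (42.9%) were called, Krt19 higher and Aldh1a2 and Wt1 lower. Cartilage and tendon markers (8 genes) summed to 5.49 to 9.91 FPKM and lung markers (5 genes) to 0.0517 to 2.48 FPKM over the 6 libraries. None of the 3 tested cartilage and tendon markers was called. No lung marker reached the limit for testing, so those are described by value only. Whether shifts among these cells take part in the collagen values was not tested.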

How the data were processed

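The authors deposited FPKM values for 56748 genes in 6 libraries, per the file headers. Tools listed in the submitters' processing notes are TopHat2 2.0.13, featureCounts of Subread, edgeR and FastQC. The same notes list mm10, GRCm39 and GRCh38, without saying which was used for what. Strand setting and annotation release: not given in the sources used here. Coordinates are as deposited. Of the 44 collagen genes, 3 had the same start and end in GENCODE M21 (GRCm38), which leaves GRCm39 of the mouse builds named. The labels' protocols name the miRNeasy micro kit for RNA and the Ovation Ultralow V2 kit.

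In each library, FPKM times gene length came in whole steps. All values under 200 reads (100%) lay within 0.1 of a whole number, which gave back the reads. The library size behind FPKM was 0.960 to 1.07 times their total. PCR duplicates could not be told from separate molecules.

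The test was that of limma 3.58.1 (R 4.3.3) on values of log2(FPKM + 1), with the group alone in the model and an intensity trend, over the 12678 genes with a mean of at least 1 FPKM, with Benjamini-Hochberg adjustment at 0.05. The same fit was made without FF_3. The scale understates changes of low genes. Values in every library are given for collagens past the threshold with or without FF_3, the 3 highest of each class, and those whose groups did not overlap. Of each pathway list, up to 3 called members or, with none, the member with the smallest p are named. The collagen classes, lists, tests and the alternatives were chosen with earlier results of these data known. The ratios between chains, Xist and Ddx3y, Lum and Wif1, the mural sum without Acta2, Col13a1's and Col28a1's separation and all alternatives applied without FF_3 were added after the values were seen. GC content came from the longest GENCODE M21 transcript of a gene and was available for 98.4% of tested genes. The correction subtracted a lowess curve (span 0.3) per library. Upstream sequences were taken from RefSeq by symbol. The scripts were tested on simulated data.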

Additional observations from a re-analysis of the deposited data

How the results depend on the processing

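With all 6 libraries 21 genes passed the threshold and no collagen did. Leaving out 1 library gave 0 to 1520 genes and 0 to 2 collagens, where only the fit without FF_3 gave any. Other settings gave 11 genes at a pseudocount of 0.1, 0 with no filter, 53 at a mean of at least 5 FPKM, 59 with quantile normalization, 530 with GC correction, 13 with no intensity trend, 11 with voom and 4300 with library weights. Collagens stayed at 0 calls in these, except 8 of 24 with library weights (4 higher, 4 lower). A like share of all tested genes, 4300 of 12678, passed in that setting. Deviations from the group mean over tested genes had correlations of 0.38, -0.24 and 0.24 between same-numbered samples. A library's deviation depends on the other libraries of its group, so these values cannot show whether the numbers pair samples. With the number as a replicate block 2 genes passed, 0 with GC correction added, and 0 collagens in both.

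Without FF_3, leaving out a further library gave 0 to 1705 genes (1520 with 5 libraries) and 0 to 2 collagens. Where a single FF library was left, it was assumed to vary like the cKO libraries. The count was 0 genes and 0 collagens without FF_1 or without FF_2, 509 and 1 without cKO_2, and 97 and 0 without cKO_3. It was 0 and 0 with no filter, 2433 and 5 with voom, and 2321 and 3 with library weights (Col18a1, Col23a1 and Col4a6). A mean of at least 5 FPKM, a filter that removes Col4a6 and Col23a1, gave 1542 genes and 1 collagen (Col4a5).

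Log2 differences of uncalled collagens near 0 changed sign. Leaving out 1 of 6 libraries gave -0.300 to 0.0292 for Col4a1, -0.289 to 0.0478 for Col4a2, -0.521 to 0.265 for Col1a1, -0.429 to 0.0044 for Col6a1 and -0.378 to 0.0440 for Col6a2. Library weights gave 0.0906, 0.0867, 0.166, 0.0075 and 0.0470 for these genes. Without FF_3, leaving out a further library gave -0.0407 to 0.137 for Col4a1, -0.0555 to 0.198 for Col4a2, -0.225 to 0.182 for Col1a2, -0.132 to 0.175 for Col6a1 and -0.0974 to 0.213 for Col6a2. GC correction gave -0.0353 for Col4a1, -0.0045 for Col4a2, -0.0605 for Col6a1 and -0.0152 for Col6a2, and Col1a2 was 0.0881 with quantile normalization and 0.0611 with library weights. The cause of these changes was not tested, apart from fewer samples or genes where a setting removes them. With 22 to 49 reads for a gene such as Col28a1, depth limits what can be seen among the low collagens.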

Other observations

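The genes outside the family whose levels followed the mean of the 8 tested fibrillar collagens most closely over the 6 libraries were Notch3 (Pearson's r 0.996 on log2(FPKM + 1)), Fgfr1 (0.995), Trf (0.993), Fcgrt (0.992) and Rhou (0.991). Notch3 encodes a receptor of vascular mural cells, Fgfr1 a receptor of fibroblast growth factors and Trf transferrin, the iron carrier of blood. Notch3 was 8.54, 10.2 and 14.9 FPKM in FF_1 to FF_3 and 7.63, 10.0 and 10.5 FPKM in cKO_1 to cKO_3, with its highest value in FF_3 and its lowest in cKO_1, as for most collagens. The points share libraries, depth and the GC trend of FF_3, and the genes were picked as the closest of all, so the values are a description only.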
